A study of Danio rerio with 4 samples.

Results

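The collagen genes of the zebrafish (Danio rerio) were examined in RNA sequencing libraries of cells sorted from the tail of embryos at 52 hours post fertilisation (hpf). The members were all rows of the deposited count table whose symbol begins, in any case, with col, a number, the letter a and a further digit. This rule found 58 of 31947 rows. Of these, 56 are collagen chains by name, and the remaining 2, col4a3bpa and col4a3bpb, carry the older symbol of a ceramide transfer protein that binds a type IV collagen in mammals and is not a collagen itself. By type number, 10 rows were placed in the fibrillar group (types 1, 3, 5, 24 and 27), 9 in the basement membrane group (types 4, 15 and 18), 11 in the cartilage group (types 2, 9, 10 and 11) and 26 in the group of all other types.

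The embryos carried mCherry under the kdrl promoter, which is active in endothelial cells, and GFP under the CD41 (itga2b) promoter, which is active in blood stem and progenitor cells and in thrombocytes. Cells positive for mCherry formed the group CHT-EC and cells positive for GFP formed the group CHT-HSPC, with 2 libraries in each, where CHT is the caudal hematopoietic tissue, a site of the embryonic tail in which blood stem cells lodge. No further allele, treatment or untreated control is named in the labels, which do not say how many embryos were pooled or whether replicates were sorted separately. The p-values therefore measure only the spread between these libraries, which may be technical.

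Collagens are secreted proteins of the extracellular matrix, built of chains that wind around each other in a helix of repeated glycine triplets. Fibrillar types give tensile strength to connective tissue, type IV forms the sheet-like network under endothelium and epithelium, and types II, IX and XI together form the fibrils of cartilage. In zebrafish embryos the last 3 types are also well known from the sheath of the notochord, the axial rod that runs the length of the tail. In blood vessels, type IV, XV and XVIII collagens are part of the vascular basement membrane.

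Collagen transcripts were more abundant in the CHT-EC libraries, and most of the excess lay in the cartilage group. Collagen genes took 3.07% and 0.915% of the counts of CHT-EC replicates 1 and 2, and 0.298% and 0.139% of those of CHT-HSPC replicates 1 and 2. Both CHT-EC libraries were above both CHT-HSPC libraries, and replicate 1 of CHT-EC stood far above its partner. Of the 51 collagen genes with enough counts for testing, 8 were higher in CHT-EC (15.7%), against a background of 3.78% of all 19016 genes tested (quasi-likelihood test of edgeR, adjusted p under 0.05 after Benjamini and Hochberg). In the other direction the same test placed 0 of 51 higher in CHT-HSPC, against a background of 0.752%, and in either direction the background was 4.53%. At an unadjusted p under 0.05 the counts were 17 and 0 (background 14.6% and 9.23%), DESeq2 placed 16 and 0 (background 10.9% and 3.91%), and limma-voom placed 9 and 0 (background 3.71% and 1.23%). The genes higher in CHT-EC were 6 of the cartilage group, col8a1a and the basement membrane gene col4a5. The 7 other than col4a5 passed under each of the 12 other settings and tests tried, including those with 1 library left out.

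**Figure D1:**
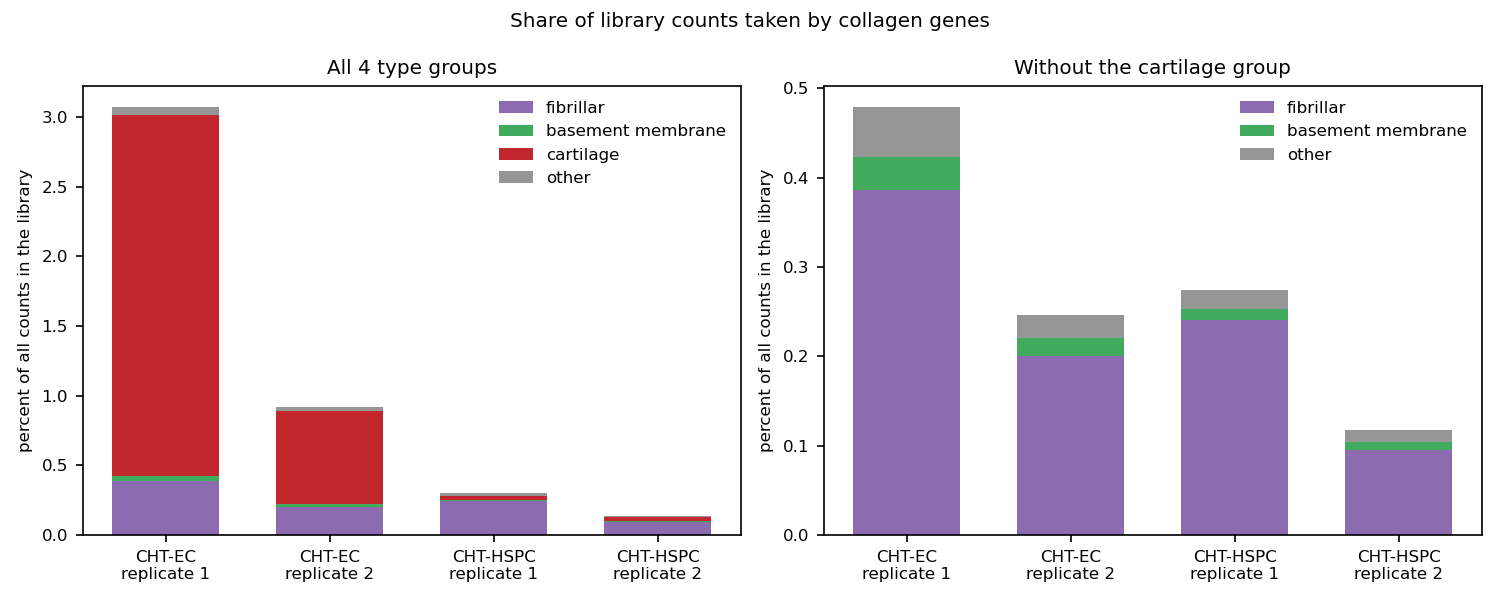
Percent of all counts of each library taken by collagen genes, stacked by type group, for all groups (left) and without the cartilage group (right). The cartilage group took 2.59% and 0.669% of the CHT-EC counts and 0.0241% and 0.0220% of the CHT-HSPC counts, while the fibrillar group overlapped between the groups.

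Over the 51 genes, the log2 fold change (log2FC, CHT-EC minus CHT-HSPC) had a median of 0.83, with 45 positive and 6 negative values, beside a median of 0.02 and 50.8% positive values over all genes tested. Both CHT-EC libraries lay above both CHT-HSPC libraries for 21 of the 51 (41.2%, background 30.6%), and both CHT-HSPC libraries lay above for 0 (background 27.9%). The make-up of the collagen counts differed as well. Cartilage genes took 84.4% and 73.1% of all collagen counts in CHT-EC but 8.06% and 15.8% in CHT-HSPC, and for fibrillar genes these shares were 12.6% and 21.9%, against 80.7% and 68.1%. Levels are given as CPM, in which library totals were equalised with TMM factors. They are not divided by transcript length, so shares, rankings by level and count ratios between genes also depend on length. In such bulk samples, fewer cells of a type and less RNA per cell cannot be told apart.

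**Figure D2:**
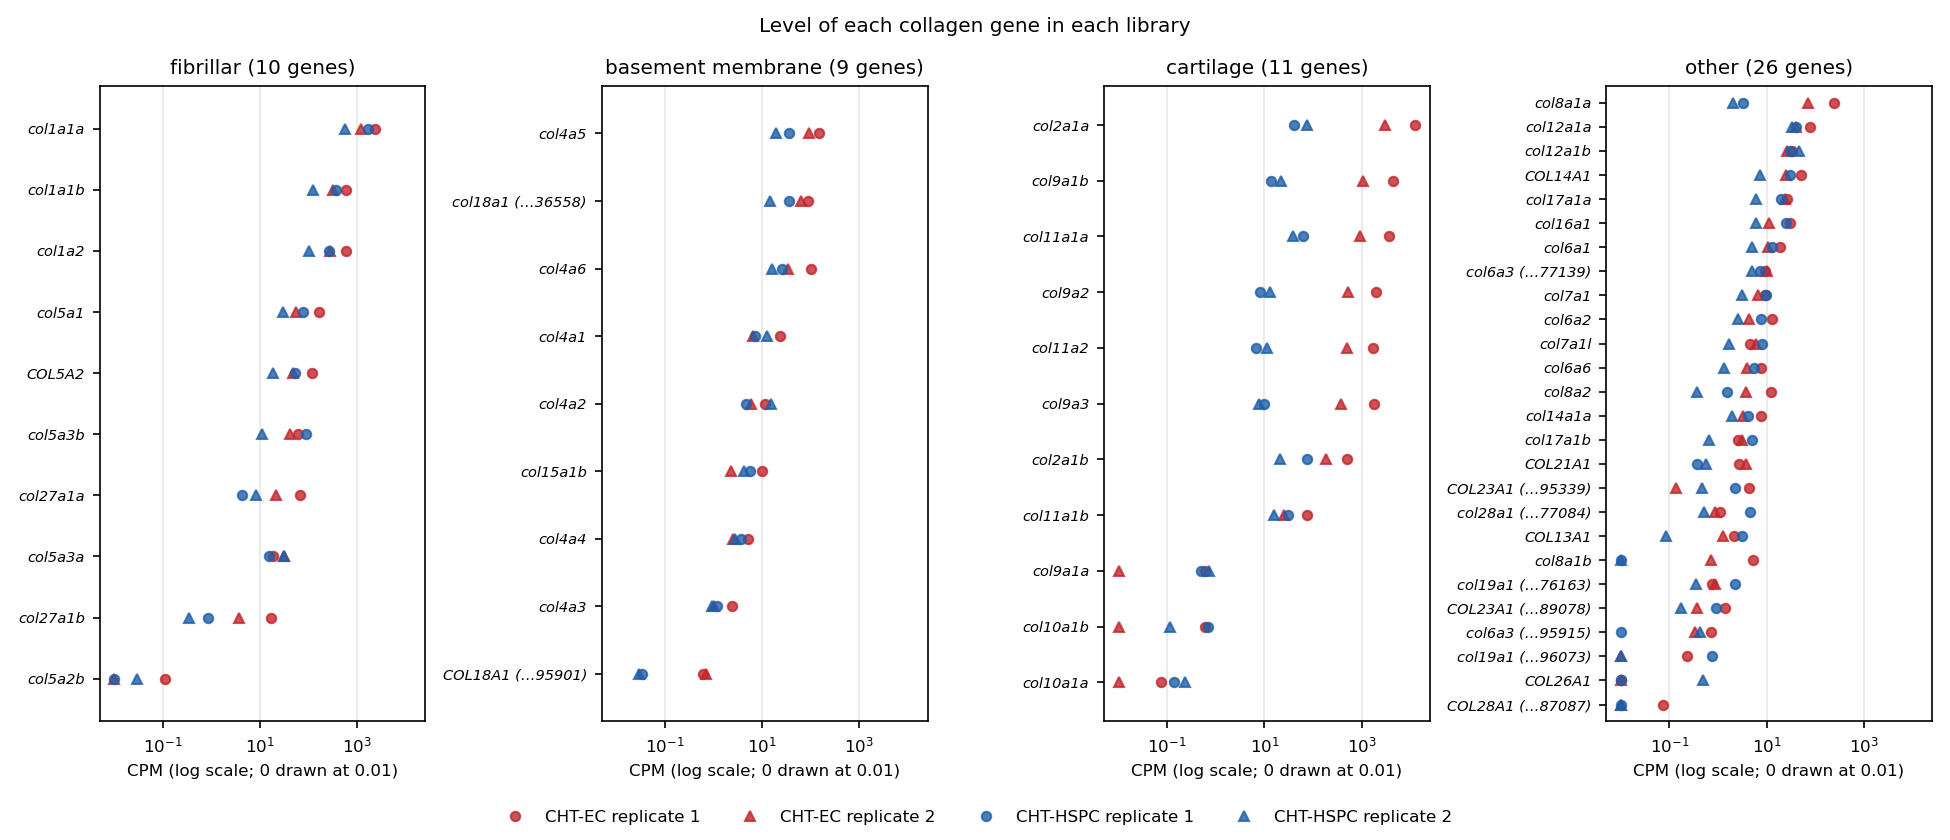
Level of each of the 56 collagen genes in each of the 4 libraries, in CPM on a log axis, by type group (circles: replicate 1; triangles: replicate 2; red: CHT-EC; blue: CHT-HSPC; digits after a symbol are the end of the Ensembl identifier). For 6 cartilage genes and col8a1a the red and blue points are separated by more than 10-fold, while most fibrillar genes interleave.

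The libraries held between 27514202 and 32268535 counts, with 19598 to 23309 genes detected, and the 3 counts that a gene at 0 could still have had amount to 0.0867 to 0.112 CPM. The Wilson intervals of the shares above, at the 95% level, extended by at most 0.00644 percentage points to either side and cover counting error only. The labelled cell types were checked against marker lists. Of 26 tested endothelial markers, 1 (stab2) was higher in CHT-EC (3.85%, near the background of 3.78%). Their median log2FC was 2.15, with 25 positive values and 18 separated between the groups (69.2%, background 30.6%). Their summed level was 936 and 562 CPM in CHT-EC against 427 and 401 CPM in CHT-HSPC. Most of the CHT-HSPC sums came from fli1a, which is also on the list of stem cell and thrombocyte markers. It was at 151 and 232 CPM in CHT-EC, against 239 and 223 CPM in CHT-HSPC (log2FC −0.27). Of 15 tested stem cell and thrombocyte markers, 7 were higher in CHT-HSPC (46.7%, background 0.752%), among them itga2b, the gene behind the GFP reporter. The gene behind the mCherry reporter, kdrl, was at 14.5 and 3.40 CPM in CHT-EC, against 3.07 and 0.896 CPM in CHT-HSPC, without overlap (log2FC 2.17, SE 0.92, adjusted p = 0.208). Markers of further cell types were also higher in CHT-EC. The background for each of these lists is 3.78%. They were 8 of 9 tested neutrophil markers (88.9%, summed level 23747 and 18603 CPM, against 1229 and 1446 CPM) and 9 of 20 macrophage markers (45.0%, 662 and 372 CPM, against 19.1 and 20.1 CPM). Further ones were 6 of 11 erythroid markers (54.5%, 19102 and 34484 CPM, against 2783 and 1949 CPM, with epor higher in CHT-HSPC) and 8 of 14 neural markers (57.1%, 537 and 580 CPM, against 115 and 97.4 CPM). Many rows of the macrophage list share the symbol MFAP4, and they include some of those that passed. For 21 muscle markers none passed, and their sums were 4062 and 8879 CPM, against 19488 and 2495 CPM. Both groups are named by gate, and the part of these cell types in the results below was not tested.

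The cartilage group held the genes with the widest difference. Of its 10 tested members 6 were higher in CHT-EC (60.0%, background 3.78%) and none was higher in CHT-HSPC (background 0.752%). They were 1 of the pair of type II genes, 3 type IX genes and 2 type XI genes, that is, one or more chains of each of the 3 types that make up the mixed fibril. Type II collagen is the main chain of this fibril, and col2a1a (ENSDARG00000069093) was at 12605 and 3108 CPM in CHT-EC, against 40.8 and 73.6 CPM in CHT-HSPC. The lower CHT-EC library was still far above the higher CHT-HSPC library (log2FC 7.10, SE 0.79, adjusted p = 0.0103). This gene alone took 1.22% and 0.308% of all counts of the CHT-EC libraries.

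Type IX collagen sits on the surface of the type II fibril and is a trimer of 3 different chains. The first chain, col9a1b (ENSDARG00000031483), was at 4368 and 1069 CPM in CHT-EC, against 13.7 and 22.1 CPM in CHT-HSPC (log2FC 7.25, SE 0.78, adjusted p = 0.0101). The second, col9a2 (ENSDARG00000024492), was at 2014 and 521 CPM against 8.19 and 13 CPM (6.90, SE 0.75, adjusted p = 0.0101). The third, col9a3 (ENSDARG00000037845), was at 1784 and 385 CPM against 9.71 and 7.78 CPM (6.95, SE 0.80, adjusted p = 0.0115). In each of the 3 the groups were separated. Within a library the counts of col9a1b were 2.17 and 2.05 times those of col9a2 in CHT-EC and 1.67 and 1.70 times in CHT-HSPC, without overlap between the groups. For col9a3 the ratio to col9a2 was 0.886 and 0.739 in CHT-EC but 1.19 and 0.598 in CHT-HSPC, so its values overlapped between groups. The duplicate col9a1a (ENSDARG00000073699) had 16 and 0 counts in CHT-EC, against 15 and 25 counts in CHT-HSPC, near the detection limit in each library.

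Type XI collagen forms the core of the fibril. The gene col11a2 (ENSDARG00000012422) was at 1752 and 506 CPM in CHT-EC, against 6.74 and 11.3 CPM in CHT-HSPC (log2FC 6.96, SE 0.72, adjusted p = 0.00945). Its partner col11a1a (ENSDARG00000026165) was at 3615 and 939 CPM against 62.6 and 39.3 CPM (5.48, SE 0.70, adjusted p = 0.0130). The groups did not overlap for either gene. In CHT-EC the counts of col11a1a were 2.06 and 1.86 times those of col11a2, and in CHT-HSPC they were 9.29 and 3.46 times. The ranges did not overlap, the CHT-HSPC values were far from each other, and the difference between gates was not tested.

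The duplicated copies of the type II and type XI genes had smaller differences than their partners. For col2a1b (ENSDARG00000011407) the levels were 492 and 189.8 CPM in CHT-EC, against 75.1 and 21.2 CPM in CHT-HSPC. The groups did not overlap, and the gene missed the threshold (log2FC 2.82, SE 0.68, adjusted p = 0.0684), which it passed with DESeq2 and limma-voom. Within a library there were 25.6 and 16.4 counts of col2a1a for each count of col2a1b in CHT-EC, while CHT-HSPC had 0.544 and 3.47. For col11a1b (ENSDARG00000009014) the levels were 74.7 and 25.5 CPM in CHT-EC, against 30.5 and 15.8 CPM in CHT-HSPC, which overlapped (1.12, SE 0.56, adjusted p = 0.281). Counts of col11a1a were 48.4 and 36.9 times those of col11a1b in CHT-EC and 2.05 and 2.49 times in CHT-HSPC. These ratios do not depend on library scaling, their ranges did not overlap between the groups, and the difference in fold change between the copies was not tested. Reads shared by the copies could be split or dropped by the counting.

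**Figure D3:**
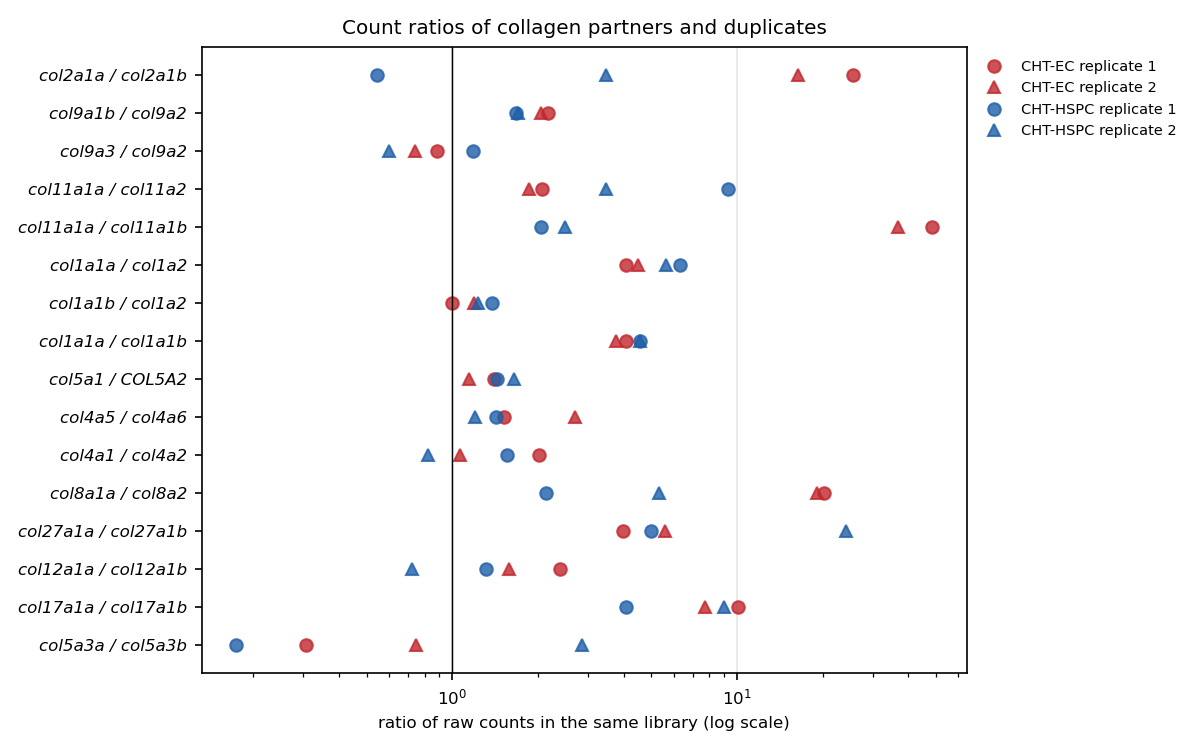
Ratio of raw counts of 2 collagen genes in the same library, on a log axis, for chains that pair in 1 protein or are duplicated copies (circles: replicate 1; triangles: replicate 2; red: CHT-EC; blue: CHT-HSPC). The ratios of col2a1a to col2a1b, of col11a1a to col11a1b and of col8a1a to col8a2 were higher in both CHT-EC libraries. So were those of col9a1b to col9a2, of col4a5 to col4a6 and of col12a1a to col12a1b. Lower in both were those of col11a1a to col11a2, of col1a1a and col1a1b to col1a2, and of col5a1 to COL5A2. The ratio of col1a1a to col1a1b was also lower in both, and stayed between 3.78 and 4.58. No ratio was tested, and no background over other gene pairs was computed.

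Type X collagen, a network former of hypertrophic cartilage, was near the detection limit. Counts of col10a1a were 2 and 0 in CHT-EC but 4 and 8 in CHT-HSPC, too low for testing, and those of col10a1b were 16 and 0 against 20 and 4 (adjusted p = 0.941).

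The 2 CHT-EC libraries differed from each other in the same genes and, by less, in the other collagen groups. For the 6 cartilage genes past the threshold, replicate 1 was 3.47 to 4.64 times as high as replicate 2, while over the 8986 tested genes with a mean of at least 10 CPM the median of this ratio was 0.982 and 3.28% of genes exceeded 3-fold. At the same mean level, the median CHT-EC ratio was 2.04 for 8 fibrillar, 2.24 for 4 basement membrane and 1.94 for 7 other collagen genes. In CHT-HSPC the 6 cartilage genes past the threshold had ratios of replicate 1 to replicate 2 between 0.555 and 1.60. Markers of axial and skeletal tissues also differed between the gates and between the CHT-EC libraries. Of 10 tested notochord markers 6 were higher in CHT-EC (60.0%, background 3.78%), namely ta and tb, the zebrafish Brachyury genes, shha, epyc, lect1 and matn3b. The summed level of the list was 2307 and 530 CPM in CHT-EC, against 26.7 and 31.0 CPM in CHT-HSPC. Of this list tb and shhb had 0 counts in both CHT-HSPC libraries and noto had 0 counts in all 4. The gene shhb, which is also on the floor plate list, had 101 and 0 counts in CHT-EC and was not tested. Of 13 tested cartilage markers 4 were higher in CHT-EC (30.8%, background 3.78%), namely acanb, matn3a, ucmab and lect1, which is on both lists. The sums were 2299 and 700.2 CPM in CHT-EC, against 413 and 505 CPM in CHT-HSPC. For 2 members (15.4%, background 27.9%), hapln1b and runx3, both CHT-HSPC libraries lay above (log2FC −1.66 and −1.19, neither past the threshold). In CHT-HSPC hapln1b was at 137 and 56.2 CPM and runx3 at 211 and 367 CPM, which was most of the sums there. Of 8 tested floor plate and hypochord markers 1 (ntn1b) was higher in CHT-EC (12.5%, background 3.78%), with sums of 394 and 74.0 CPM against 37.1 and 41.4 CPM. Their part in the result was not tested.

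In the fibrillar group 0 of 9 tested genes passed in either direction (background 4.53%). This group leaves out types II and XI, which also form fibrils and were placed in the cartilage group. At an unadjusted p under 0.05, 3 and 0 were higher in the respective groups, DESeq2 placed 2 and 0, and limma-voom placed 0 and 0. All 9 log2 fold changes were positive, with a median of 1.04. The type I genes were well covered in every library. The level of col1a1a (ENSDARG00000012405) was 2372 and 1225 CPM in CHT-EC, against 1636 and 564 CPM in CHT-HSPC. Its libraries interleaved, with CHT-HSPC replicate 1 between the CHT-EC libraries (log2FC 0.71, SE 0.52, adjusted p = 0.455). The copy col1a1b (ENSDARG00000035809) was at 584 and 325 CPM against 358 and 123 CPM (0.92, SE 0.52, adjusted p = 0.332). The second chain of the type I trimer, col1a2 (ENSDARG00000020007), was at 583 and 273 CPM against 259 and 100.3 CPM (1.25, SE 0.52, adjusted p = 0.205). For col1a2 the groups did not overlap, but the lower CHT-EC library and the higher CHT-HSPC library were close. The counts of col1a1a were 4.07 and 4.49 times those of col1a2 in CHT-EC and 6.31 and 5.63 times in CHT-HSPC.

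Type V collagen sets the diameter of type I fibrils. The gene col5a1 (ENSDARG00000012593) was at 162 and 53.9 CPM in CHT-EC, against 75.0 and 29.7 CPM in CHT-HSPC, and COL5A2 (ENSDARG00000031678) was at 116 and 47.2 CPM against 52.4 and 18.1 CPM. Both interleaved in the same order as col1a1a. Their log2 fold changes were 1.04 (SE 0.60, adjusted p = 0.340) and 1.21 (SE 0.59, adjusted p = 0.269). The copies col5a3a and col5a3b had log2 fold changes of 0.09 and 0.04, each smaller than its SE (0.45 and 0.81). The level of col5a3b was 61.5 and 40.8 CPM in CHT-EC, against 88.8 and 10.8 CPM in CHT-HSPC, so that the CHT-HSPC libraries enclosed those of CHT-EC. The remaining row, col5a2b, had 4 counts in all and was not tested.

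Type XXVII collagen, a fibril former known from cartilage and, in zebrafish, from the notochord, had both of its genes separated between the groups. The level of col27a1a (ENSDARG00000101258) was 67.4 and 21.1 CPM in CHT-EC, against 4.21 and 8.38 CPM in CHT-HSPC (log2FC 2.81, SE 0.64, adjusted p = 0.0591). That of col27a1b (ENSDARG00000099930) was 16.9 and 3.77 CPM against 0.843 and 0.347 CPM (4.12, SE 0.95, adjusted p = 0.0605). In both genes the CHT-EC libraries were higher and the test fell just short of the threshold. DESeq2 placed both past it (background 10.9%), and limma-voom placed neither (adjusted p = 0.0697 and 0.168, background 3.71%). Without CHT-EC replicate 1 the log2FC was 1.74 for col27a1a and 2.67 for col27a1b.

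Beside the fibrillar genes, the summed level of 24 fibroblast and sclerotome markers was 443 and 235 CPM in CHT-EC, against 205 and 101 CPM in CHT-HSPC. Of 22 tested members 1 (cdh11) was higher in CHT-EC (4.55%, near the background of 3.78%). The markers PDGFRB and fbln1 had 0 counts in every library, and dcn, lum, fmoda and postnb of this list also belong to the matrix genes below. The summed level of 25 epidermis markers was 6134 and 2977 CPM in CHT-EC, against 2155 and 801 CPM in CHT-HSPC. Of these 25, 1 (cyt1l) was higher in CHT-EC (4.0%, near the background of 3.78%). Their part in the fibrillar levels was not tested.

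Of the 9 basement membrane genes 1 was higher in CHT-EC (11.1%, background 3.78%) and none in CHT-HSPC (background 0.752%). Type IV chains assemble in fixed combinations, and their genes lie in neighbouring pairs, of which col4a1 and col4a2, col4a3 and col4a4, and col4a5 and col4a6 are next to each other in the RefSeq gene order of the assembly GRCz12tu. The gene that passed belongs to the last of these pairs. The level of col4a5 (ENSDARG00000052063) was 149.7 and 92.6 CPM in CHT-EC, against 36.3 and 18.8 CPM in CHT-HSPC (log2FC 2.14, SE 0.42, adjusted p = 0.0394). Its adjusted p rose to 0.179 when the first CHT-EC library was left out and to 0.0669 when the second CHT-HSPC library was, while its log2FC was 1.76 and 1.78. Over all genes 0.546% were higher in CHT-EC in the first of these fits and 4.24% in the second. Its neighbour col4a6 (ENSDARG00000052061) was at 98.8 and 34.4 CPM against 25.4 and 15.7 CPM (1.70, SE 0.53, adjusted p = 0.119). The groups were separated for both genes of the pair.

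The chains col4a1 and col4a2, the widespread form of type IV collagen under endothelium, were low and overlapped. The level of col4a1 (ENSDARG00000055009) was 23.6 and 6.35 CPM in CHT-EC, against 7.08 and 12.7 CPM in CHT-HSPC (log2FC 0.60, SE 0.67, adjusted p = 0.637). That of col4a2 (ENSDARG00000104110) was 11.7 and 5.98 CPM against 4.55 and 15.4 CPM (−0.18, SE 0.68, adjusted p = 0.910). In both genes CHT-EC replicate 2 lay below CHT-HSPC replicate 2, and with an SE above 0.6 a difference of about 2-fold was not detectable. The genes col4a3 and col4a4 stayed between 0.925 and 4.98 CPM in all libraries.

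The multiplexins, types XV and XVIII, carry heparan or chondroitin sulfate chains and lie at the outer face of basement membranes. The level of col18a1 (ENSDARG00000036558), whose mammalian counterpart releases the fragment endostatin, was 85.6 and 62.0 CPM in CHT-EC, against 36.3 and 14.3 CPM in CHT-HSPC. The groups were separated and the threshold was missed (log2FC 1.54, SE 0.47, adjusted p = 0.113). A second row with this symbol in capitals, COL18A1 (ENSDARG00000095901), had 16 and 20 counts in CHT-EC, against 1 and 1 counts in CHT-HSPC (4.19, SE 1.87, adjusted p = 0.231). The level of col15a1b was 9.82 and 2.31 CPM in CHT-EC, against 5.73 and 4.16 CPM in CHT-HSPC, which overlapped (0.29, SE 0.76, adjusted p = 0.858).

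**Figure D4:**
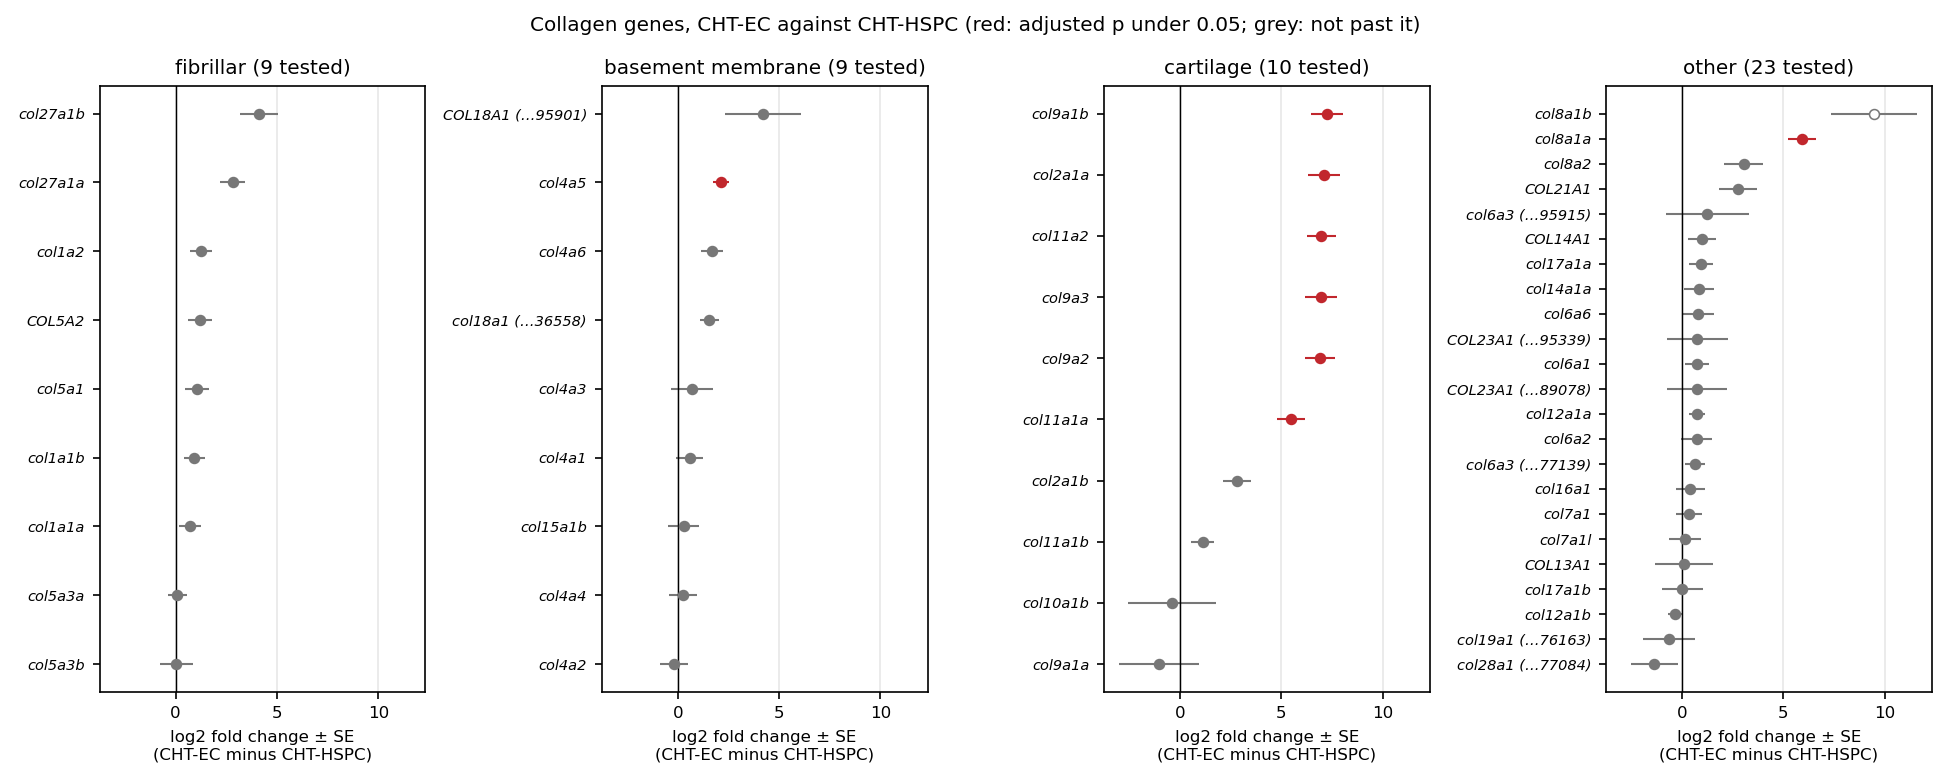
Log2 fold change (CHT-EC minus CHT-HSPC) with its SE for the 51 tested collagen genes, by type group (red: adjusted p under 0.05; grey: not past it; white centre: 0 counts in CHT-HSPC, so the fitted value depends on the prior count). The 6 red genes of the cartilage group lie between 5.48 and 7.25, and col8a1a and col4a5 are the other genes past the threshold.

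Among the 23 tested genes of other types, 1 was higher in CHT-EC (4.35%, background 3.78%) and none was higher in CHT-HSPC, and the median log2 fold change was 0.73. The gene was col8a1a (ENSDARG00000077403), a short-chain network collagen that is needed for a normal notochord in zebrafish. Its level was 244 and 71.6 CPM in CHT-EC, against 3.30 and 1.99 CPM in CHT-HSPC (log2FC 5.90, SE 0.69, adjusted p = 0.0117). Replicate 1 of CHT-EC was 3.41 times as high as replicate 2, just below the ratios of the 6 cartilage genes that passed (3.47 to 4.64). Such ratios were not particular to the cartilage group, since the basement membrane gene col4a1 had 3.71. The other type VIII genes were also higher in CHT-EC without passing. The partner chain col8a2 (ENSDARG00000060893) was at 12.1 and 3.74 CPM against 1.55 and 0.376 CPM (3.04, SE 0.95, adjusted p = 0.119). The copy col8a1b (ENSDARG00000003533) had 139 and 21 counts in CHT-EC and 0 in both CHT-HSPC libraries (adjusted p = 0.0678). With the libraries of each group pooled it was at least 61.1-fold higher, against a floor of 3 counts over the CHT-HSPC group. This bound covers counting error only, not the spread between replicates.

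Of the fibril-associated collagens outside the cartilage group, which link fibrils to the surrounding matrix, none passed the test. With a background of 4.53% in either direction and few genes, this is not particular to them. The level of col12a1a (ENSDARG00000078322), a type XII chain of fascia and tendon, was 79.8 and 41.1 CPM in CHT-EC, against 40.2 and 32.8 CPM in CHT-HSPC (log2FC 0.73, SE 0.38, adjusted p = 0.294). Its copy col12a1b (ENSDARG00000019601) was at 33.2 and 26 CPM against 30.6 and 45.5 CPM (−0.36, SE 0.34, adjusted p = 0.569). The copies thus had opposite signs, neither past the threshold. Of the remaining members of this kind, COL14A1 was at 50.04 and 25.5 CPM in CHT-EC, against 31.04 and 7.31 CPM in CHT-HSPC, col16a1 was at 30.1 and 11.3 CPM against 25.04 and 6.19 CPM, and COL21A1 was at 2.66 and 3.84 CPM against 0.371 and 0.578 CPM. For COL14A1 and col16a1 the groups overlapped (adjusted p = 0.420 and 0.785), and for COL21A1 they did not (2.76, SE 0.93, adjusted p = 0.135). The genes col14a1a and col19a1 are also of this kind, and their groups overlapped.

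The beaded-filament chains of type VI were low in every library. The levels of col6a1 were 18.9 and 10.8 CPM in CHT-EC, against 12.7 and 5.09 CPM in CHT-HSPC, and the 5 type VI rows had log2 fold changes from 0.64 to 1.25 with adjusted p from 0.460 to 0.761. The collagens of the epidermal attachment complex are type VII, the anchoring fibril, and type XVII, a transmembrane collagen of basal keratinocytes. The level of col7a1 was 9.22 and 6.66 CPM against 9.57 and 3.06 CPM (0.33, SE 0.65, adjusted p = 0.807). That of col17a1a was 26.5 and 23.5 CPM against 20.2 and 6.01 CPM (0.94, SE 0.57, adjusted p = 0.367). The groups overlapped for col7a1, and for col17a1a they lay close together without overlap. Values of the other tested rows ranged from −1.37 for col28a1 (ENSDARG00000077084; 29 and 26 counts in CHT-EC, 136 and 18 in CHT-HSPC) upward, and the lowest adjusted p among rows with no value given above was 0.535, for col14a1a.

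Not tested for lack of counts were col5a2b, col10a1a, 1 of 2 rows named col19a1 (ENSDARG00000096073), COL26A1 and 1 of 2 rows of type XXVIII (ENSDARG00000087087). COL26A1 had 17 counts, all in CHT-HSPC replicate 2, and the type XXVIII row had 2 counts, both in CHT-EC replicate 1. Of the rows that are not collagens, col4a3bpa was at 3.07 and 7.88 CPM in CHT-EC, against 1.85 and 2.43 CPM in CHT-HSPC, and col4a3bpb was at 71.03 and 35.7 CPM against 51.0 and 60.5 CPM. Neither passed (adjusted p = 0.305 and 0.945).

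Genes that make, cross-link, bind or sense collagen were taken from 7 lists. Among 81 genes with enough counts 7 were higher in CHT-EC (8.64%, background 3.78%) and 1 was higher in CHT-HSPC (1.23%, background 0.752%), with a median log2 fold change of 1.26 and 65 positive values. Without CHT-EC replicate 1, 0 of 83 passed in either direction with edgeR, where the share over all genes was 0.546% and 0.0492%, and the log2FC of the 5 of these 7 genes with counts in CHT-HSPC was between 2.52 and 3.75. Leaving out CHT-EC replicate 2 gave 18 and 0, leaving out CHT-HSPC replicate 1 gave 9 and 0, and limma-voom gave 4 and 1, with 2.82%, 3.59% and 3.71% of all genes higher in CHT-EC in the same order. The genes higher in CHT-EC acted in lysine modification, propeptide removal, cross-linking and collagen sensing. Of them, plod1a and loxl2b also passed with limma-voom. COLGALT2, pcolce2b, loxl1, loxl3b and ddr2b did not (limma-voom adjusted p = 0.0529 to 0.107).

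The first steps take place in the endoplasmic reticulum. All 10 tested genes of prolyl hydroxylation had positive values (median 1.79), beside 50.8% over all genes tested, and none passed. For 8 of the 10 both CHT-EC libraries lay above both CHT-HSPC libraries (80.0%, background 30.6%). In edgeR 7 had an unadjusted p under 0.05 (background 14.6%). The member with the highest mean CPM, ppib, a prolyl isomerase, was at 573 and 356 CPM in CHT-EC, against 254 and 212 CPM in CHT-HSPC (log2FC 1.0, SE 0.30, adjusted p = 0.115). Of 8 genes of lysine hydroxylation and glycosylation 2 passed, both higher in CHT-EC (background 3.78%). The lysyl hydroxylase plod1a (ENSDARG00000059746) was at 87.4 and 23.8 CPM against 4.38 and 2.46 CPM (4.02, SE 0.69, adjusted p = 0.0294). The row COLGALT2 (ENSDARG00000078299), a collagen galactosyltransferase, was at 25.5 and 8.49 CPM in CHT-EC with 0 counts in CHT-HSPC (adjusted p = 0.0126). With the libraries of each group pooled it was at least 355-fold higher against a floor of 3 counts over the group. The member with the highest mean CPM, plod3, was at 90.4 and 52.9 CPM against 37.2 and 48.1 CPM, which did not overlap (0.75, SE 0.35, adjusted p = 0.249). Of 12 genes of folding and secretion none passed, with a median of 0.71. The coat protein gene sec24d, with the highest mean CPM of the list, was at 208 and 124 CPM against 107 and 153 CPM. The collagen chaperone serpinh1b (Hsp47), chosen after its values were seen, was at 164 and 42.9 CPM against 32.9 and 28.1 CPM (1.76, SE 0.58, adjusted p = 0.131).

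Outside the cell, propeptides are removed and fibrils are cross-linked. Of 11 tested genes of propeptide cleavage 1 passed (9.09%, background 3.78%). This was pcolce2b (ENSDARG00000055575), an enhancer of the C-proteinase, at 16.8 and 6.93 CPM in CHT-EC, against 0.539 and 0.491 CPM in CHT-HSPC (log2FC 4.51, SE 0.71, adjusted p = 0.0223). The proteinase gene bmp1a, with the highest mean CPM of the list, was at 96.3 and 33.5 CPM against 20.5 and 21.7 CPM (1.62, SE 0.50, adjusted p = 0.115). Of 11 tested cross-linking genes 3 lysyl oxidase-like genes were higher in CHT-EC (27.3%, background 3.78%). These enzymes oxidise lysines of collagen and elastin. The gene loxl1 was at 33.6 and 8.77 CPM against 0.876 and 1.13 CPM (4.39, SE 0.76, adjusted p = 0.0294). For loxl2b the levels were 31.8 and 16.2 CPM against 2.70 and 2.95 CPM (3.08, SE 0.50, adjusted p = 0.0247), and for loxl3b they were 53.7 and 16 CPM against 2.09 and 2.43 CPM (3.94, SE 0.65, adjusted p = 0.0255). The transglutaminase tgm2b was the gene higher in CHT-HSPC, at 48.8 and 60.2 CPM in CHT-EC, against 231 and 136 CPM in CHT-HSPC (−1.75, SE 0.34, adjusted p = 0.0380). Its call ended without either CHT-EC library or without CHT-HSPC replicate 1 (adjusted p = 0.0842 to 0.191), with a log2FC between −1.89 and −1.31.

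None of 13 tested fibril-binding genes passed, with a median of 1.23. The gene with the highest mean CPM was sparc, a collagen-binding glycoprotein, at 1011 and 259.6 CPM in CHT-EC, against 98.4 and 35.1 CPM in CHT-HSPC, where the groups were separated (log2FC 3.25, SE 0.74, adjusted p = 0.0589). Among 16 tested receptor genes 1 passed (6.25%, background 3.78%). The discoidin domain receptor gene ddr2b (ENSDARG00000058695), a receptor kinase for fibrillar collagen, was at 5.36 and 3.30 CPM in CHT-EC with 0 counts in CHT-HSPC (adjusted p = 0.0270). With the libraries of each group pooled it was at least 91.6-fold higher against the same floor. The integrin beta 1 gene itgb1a was at 84.5 and 96.03 CPM against 79.6 and 89.2 CPM (0.10, SE 0.26, adjusted p = 0.861).

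**Figure D5:**
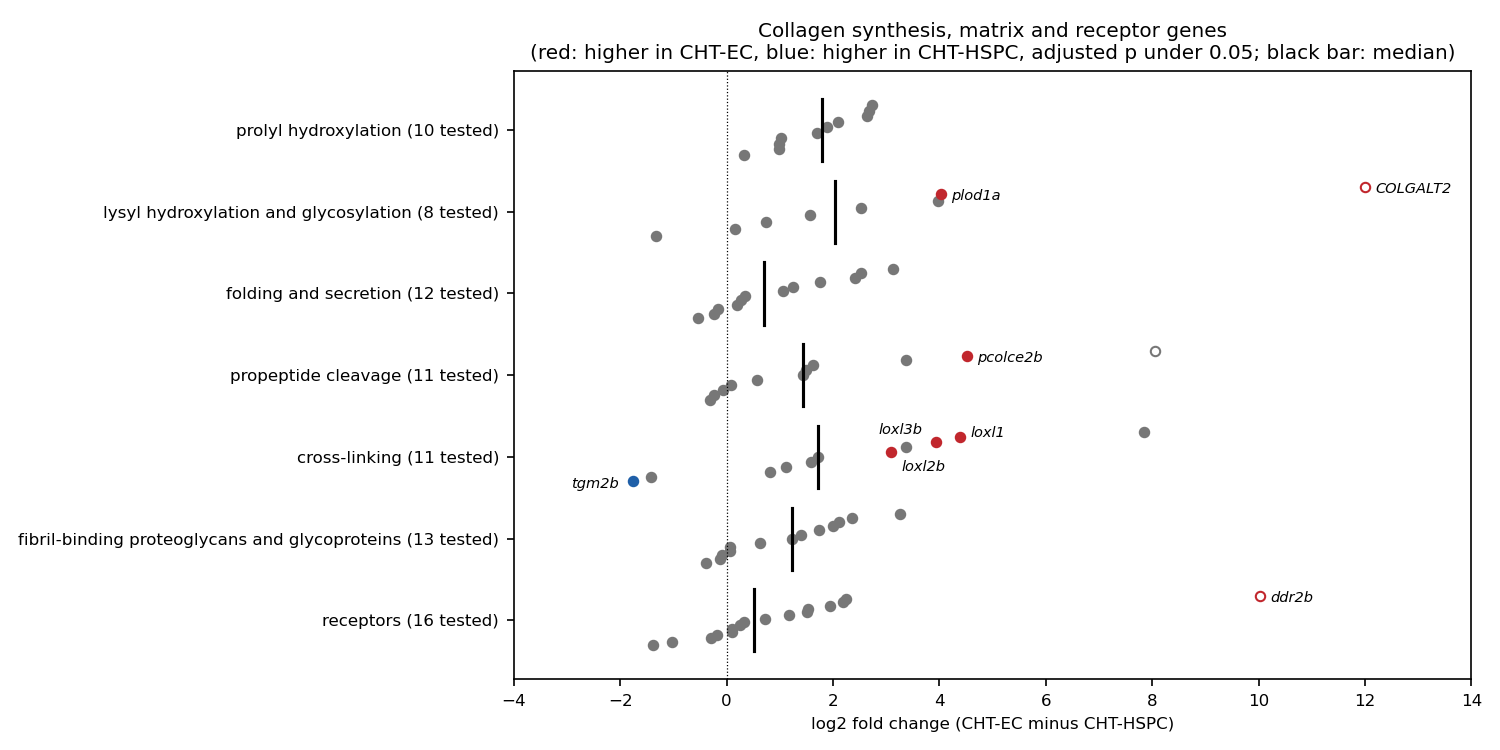
Log2 fold change (CHT-EC minus CHT-HSPC) of the 81 tested genes of collagen synthesis, cross-linking, binding and reception, 1 point per gene, by list (red: higher in CHT-EC; blue: higher in CHT-HSPC; grey: not past adjusted p 0.05; white centre: 0 counts in CHT-HSPC; black bar: median). The 7 red genes lie in the lists of lysine modification, propeptide cleavage, cross-linking and receptors, and tgm2b is the blue gene.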

How the data were processed

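The 4 libraries were available as counts per Ensembl gene in 1 table deposited by the authors, taken as not normalised because its values are whole and its columns sum to different totals. Per the labels' protocols, NEBNext Ultra was the library kit, whose standard form keeps no strand information. Per the submitters' processing notes, TopHat2 and HTSeq 0.6.1 were used with GRCz10. The annotation, strand setting and treatment of multiply mapped reads are not given in the sources used here. In the table's headers HSPC is written HSC.

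Counts were tested with edgeR 4.0.16 in R 4.3.3 (filterByExpr with a minimum count of 10 and a minimum total of 15, TMM factors, quasi-likelihood F-test, no block) over 19016 genes, with Benjamini-Hochberg adjustment at 0.05. Each adjusted p is from edgeR where no other tool is named, and each SE is the size of the log2 fold change over the root of its F value. Scripts were tested on simulated data. Alternatives were DESeq2 1.42.0, limma-voom (limma 3.58.1), other scaling and filters, the replicate number as a block, and each library left out. The text describes in full the members past the threshold, the 3 with the highest mean CPM and the extremes of each type group. The members, lists and tests were chosen with earlier results of these data known.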

Additional observations from a re-analysis of the deposited data

How the results depend on the processing

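The 7 collagen genes other than col4a5 that were higher in CHT-EC kept their side of the threshold under all 12 alternatives, and no collagen gene was higher in CHT-HSPC in any of them. The count of 8 was between 7 and 12 with 1 library left out, 16 with DESeq2 and 20 without the low-count filter. The share of all genes higher in CHT-EC moved as well, from 3.78% to 10.9% with DESeq2, 8.5% without the filter, 4.04% with upper-quartile factors, 3.71% with limma-voom and 0.546% without CHT-EC replicate 1. The count of collagen genes higher in CHT-EC was 8 without the col4a3bp rows, an alternative chosen after seeing the data. Of 81 tested synthesis and matrix genes, 7 were higher in CHT-EC. This count became 26 of 79 with DESeq2, 30 of 89 without the low-count filter, 4 of 81 with limma-voom and 11 of 81 with upper-quartile factors. The 1 higher in CHT-HSPC became 2 without the filter, where the share of all genes higher in CHT-HSPC moved from 0.752% to 3.26%. With 1 library left out these counts were 0 to 18 and 0 to 1. There the single library left in a group is assumed to vary like those of the other group. With the replicate number as a replicate block, 11 collagen genes and 13 synthesis genes were higher in CHT-EC, beside 4.28% of all genes. The labels do not say whether equal numbers pair the samples, and the main fit took them as unpaired. The differences between replicates 1 and 2 of the 2 groups had a correlation of 0.0017 over genes. This value cannot show that the samples are unpaired, since a pairing could act on a subset of genes. The collagen share was 0.915% to 3.07% in CHT-EC and 0.139% to 0.298% in CHT-HSPC with 1 library left out. Of 629 values of single members under the alternatives, 35 changed sign, in 19 genes, and none of these 35 values was past the threshold. Among members with at least 10 CPM or at the ends of their type group, these were col5a3b with upper-quartile factors (−0.0038) and, with 1 library left out, col5a3a (−0.33 to 0.70), col5a3b (−0.76 to 2.24), col4a1 (−0.64 to 1.27), col4a2 (−0.80 to 0.99), col16a1 (−0.45 to 1.75), col28a1 (−2.18 to 0.92) and col4a3bpb (−0.64 to 0.36). The cause of these changes was not tested. With 2 libraries per group, differences of about 2-fold were mostly not detectable.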

Other observations

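The libraries followed 1 order in a subset of collagen genes, a pattern noticed in the data. In 13 of the 51 tested collagen genes (25.5%), CHT-EC replicate 1 was highest, followed by CHT-HSPC replicate 1, CHT-EC replicate 2 and CHT-HSPC replicate 2, and the same order was found in 2.85% of all 19016 genes tested. The 13 comprised 4 fibrillar genes (col1a1a, col1a1b, col5a1 and COL5A2), 7 genes of other types (col6a1, col6a2, col6a6, COL14A1, col14a1a, col16a1 and 1 row of COL23A1), col4a3 and col11a1b. Within each gate replicate 1 was thus the higher library. For the 8 fibrillar genes with a mean of at least 10 CPM, the ratio of replicate 1 to replicate 2 had a median of 2.04 in CHT-EC and 2.74 in CHT-HSPC, where 7.61% and 4.58% of all genes at that level exceeded 2-fold. No test was made of this order, and its source was not tested.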
